A study of Neurospora crassa with 12 samples.

Results

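Actin, the tubulins and 2 actin-binding proteins were followed through germination of *Neurospora crassa* conidia. The group was set by gene ID, with no threshold on a measured value. It holds 6 of the 10592 genes in the count table: *act* (NCU04173, actin), *fim* (NCU03992, fimbrin), *tpm-1* (NCU01204, tropomyosin), *tba-1* (NCU09132) and *tba-2* (NCU09468), which encode alpha-tubulins, and NCU04054, which encodes beta-tubulin and is called *tub-2* here (the RefSeq symbol is *Bml*). All 6 passed the filter on low counts, together with 8112 other genes.

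The fungal cytoskeleton rests on actin filaments and microtubules. Actin filaments carry secretory vesicles into the growing tip, form the endocytic patches behind it and build the contractile ring of each septum. Fimbrin bundles actin filaments and is a marker of patches and of the subapical actin collar, whereas tropomyosin winds along unbranched filaments of cables and rings. Microtubules are polymers of alpha- and beta-tubulin dimers that serve nuclear division and long-distance transport, and beta-tubulin is the target of the fungicide benomyl. A dormant conidium has no growing tip, and a tip is set up as the germ tube emerges.

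Macroconidia of the wild-type *mat A* strain FGSC2489 were spread on cellophane over potato dextrose agar (PDA) and kept at 25°C in continuous white light. All 12 libraries came from this strain, medium and light regime, and differed by stage: fresh spores (15 min), first polar growth (120 min), germ tube elongation (240 min) and first hyphal branching (360 min), with 3 libraries per stage. A stage was defined by the majority of active spores, so spores at other stages were present in each sample. Each replicate was tissue from several plates taken in a single collection, so that the spread between replicates is the spread between such collections. Oligo(dT)-selected RNA was sequenced in strand-specific libraries of 51555784 to 84946272 counts. A level is given here in CPM, the count of a gene relative to its library's total after scaling by TMM, a factor that balances libraries on the bulk of their genes. The tissue was sequenced whole, so fewer cells of a type and less RNA per cell cannot be told apart.

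The label of fresh spores was checked with 4 conidial genes, which were not used to check the order of the later stages. All 4 fell from 15 to 120 min, between *con-10* (−3.76 on the log2 scale) and the hydrophobin gene *eas* (−8.71). Libraries of a stage correlated at 0.9939 to 0.9978 across genes. Replicate 3 at 360 min had the lowest mean correlation with its own stage (0.9941, against 0.9949 to 0.9975 for the other 11 libraries). In that library *tba-1*, *tba-2* and *tub-2* were at their lowest level of the 360 min stage and *tpm-1* at its highest, so the main values that rest on it are given below also without it.

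All 6 genes rose between fresh spores and first polar growth, and for each of them this interval held most of the net change from 15 to 360 min. A gene was called changed at a Benjamini-Hochberg adjusted p under 0.05 in edgeR's quasi-likelihood test. In the step from 15 to 120 min, 43.1% of the 8118 tested genes were called higher, so a rise by itself was common. The median change of the 6 genes was 2.07 on the log2 scale, beside 0.04 over all tested genes. Their sizes differed widely, from 11.3-fold for *fim* and 7.69-fold for *act* to 1.29-fold for *tub-2*. At 360 min all 6 were again called above 15 min (44.0% of tested genes were), with a median of 2.47 beside 0.05 over all genes. Of the change on the log2 scale from 15 to 360 min, the first interval held 95.5% for *fim*, 94.8% for *act*, 89.2% for *tba-1* and 76.9% for *tpm-1*. For *tba-2* (104%) and *tub-2* (102%) the level at 120 min was already slightly past that at 360 min, but without 360 min replicate 3 these shares were 98.9% and 83.1%, and that of *tpm-1* was 81.6%. The share of *tub-2* hides later steps of 0.20 and −0.21 on the log2 scale, which nearly cancelled in its net change.

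**Figure D1:**
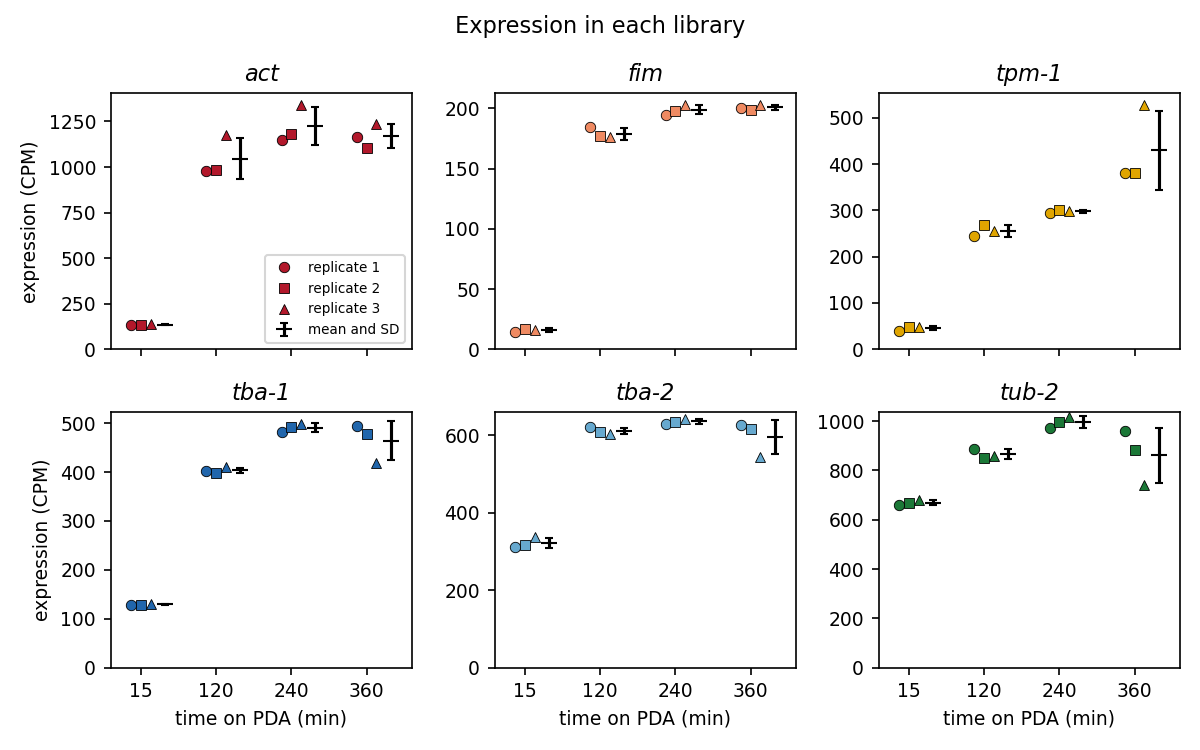
Expression of the 6 genes in each of the 12 libraries, in CPM on a linear axis from 0, by stage (15, 120, 240 and 360 min on PDA, evenly spaced); each symbol is a library, and black marks show the mean and SD of the 3 libraries of a stage. In every panel the 15 min libraries lie below all others, by far the most for *act*, *fim* and *tpm-1*, and at 360 min replicate 3 lies apart in *tpm-1* (528 CPM) and *tub-2* (742 CPM).

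*act* lies on chromosome V (5086770 to 5089247, assembly NC12) and encodes actin itself. The 3 libraries of fresh spores held 136, 134 and 138 CPM. At 120 min they held 977, 984 and 1174 CPM, at 240 min 1148, 1182 and 1343 CPM, and at 360 min 1165, 1104 and 1236 CPM. Each library of a later stage was thus above every library of fresh spores, while the 3 later stages overlapped. The rise from 15 to 120 min was 2.94 ± 0.09 on the log2 scale (SE, n = 3 libraries per stage, adjusted p = 1.2e-12 in edgeR), or 7.69-fold, which ranked 390 of 8118 tested genes. From 120 to 240 min the difference was 0.23 ± 0.08 (adjusted p = 0.055 in edgeR), and from 240 to 360 min it was −0.07 ± 0.08 (adjusted p = 0.53 in edgeR). The first of these passed the threshold in 5 alternative fits and not in 14. It passed without 120 min replicate 3, which held the highest *act* level of its stage (0.32, adjusted p = 0.012 in edgeR), and without 360 min replicate 3 (0.22, adjusted p = 0.033 in edgeR). It also passed with library totals alone (adjusted p = 0.03 in edgeR), with a replicate block (adjusted p = 0.016 in edgeR) and in DESeq2 (adjusted p = 0.022 in its Wald test).

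*fim*, on chromosome VI (2369411 to 2372582), showed the steepest rise of the 6 genes. Its level was 14, 17.1 and 16.2 CPM in fresh spores and 185, 177 and 176 CPM at first polar growth. It held 195, 198 and 203 CPM at 240 min and 200, 199 and 203 CPM at 360 min. The spores were far below all other libraries, and the germ tube and branching stages overlapped. The log2 change from 15 to 120 min was 3.50 ± 0.07 (SE, adjusted p = 2.5e-14 in edgeR), an 11.3-fold rise exceeded by 2.64% of tested genes. The later steps were 0.15 ± 0.06 (adjusted p = 0.089 in edgeR) and 0.02 ± 0.06 (adjusted p = 0.86 in edgeR), although all 240 min libraries were above all 120 min ones. With library totals alone, under which the median of all genes was 0.22 in the last step, *fim* was called higher there (0.22, adjusted p = 0.0069 in edgeR).

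*tpm-1*, on chromosome V (3226250 to 3227820), rose at first polar growth and again at branching. Fresh spores held 39.9, 48.8 and 47.6 CPM and the 120 min libraries 244, 269 and 255 CPM. Levels at 240 min were close together, at 295, 301 and 299 CPM, and those at 360 min were 381, 380 and 528 CPM. From each stage to the next, all libraries of the later stage were above all of the earlier one. The first step was 2.49 ± 0.12 on the log2 scale (SE, 5.63-fold, adjusted p = 2.2e-10 in edgeR), the second 0.22 ± 0.11 (adjusted p = 0.18 in edgeR) and the third 0.53 ± 0.11 (1.44-fold, adjusted p = 0.0024 in edgeR). *tpm-1* was the only one of the 6 genes called higher from 240 to 360 min, when 20.7% of tested genes were. Without 360 min replicate 3 that step was 0.35 (adjusted p = 0.0013 in edgeR), smaller and still called.

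Counts of *tpm-1* and *fim* were also set against those of *act* in the same library, a ratio that does not depend on scaling between libraries. The log2 ratio of *fim* to *act* was −3.11 ± 0.15 (SD, n = 3) in spores and −2.54 ± 0.18, −2.62 ± 0.09 and −2.54 ± 0.07 at 120, 240 and 360 min. In spores it ran from −3.27 to −2.97, below every later library, the highest of which was at −2.40 and the lowest at −2.74. Stages differed in this ratio (exact permutation test over the 369600 divisions of the libraries, p = 0.012, adjusted over the 4 ratios tested 0.012). The ratio of *tpm-1* to *act* took another course, with −1.59 ± 0.16 in spores, −2.03 ± 0.17 at 120 min, −2.03 ± 0.11 at 240 min and −1.46 ± 0.20 at 360 min. Tropomyosin was thus lowest relative to actin in the middle stages, and spores and branching hyphae overlapped. Stages differed (exact permutation test, p = 0.0057, adjusted 0.0076), but with the range of the stage means in place of the F statistic the adjusted p was 0.072 by the same exact permutation test. The ratio at 360 min exceeded that at 15 min by 0.13, and by 0.01 without 360 min replicate 3.

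Of the alpha-tubulin genes, *tba-1* on chromosome I (5446124 to 5449418) rose the more. Its level was 128, 129 and 131 CPM in spores, 403, 399 and 410 CPM at 120 min, 481, 493 and 499 CPM at 240 min, and 495, 477 and 419 CPM at 360 min. The first 3 stages did not overlap, and the branching stage overlapped germ tube elongation. The first step was 1.64 ± 0.06 on the log2 scale (SE, 3.12-fold, adjusted p = 8e-12 in edgeR). *tba-1* was also the only one of the 6 genes called in the step from 120 to 240 min, with 0.28 ± 0.06 (1.22-fold, adjusted p = 0.0037 in edgeR), where 12.6% of tested genes were called higher. That count of 1 rose to 4 in the fit without 360 min replicate 3, with *act*, *tub-2* and *tpm-1* joining. Calls over all genes rose too in that fit, to 1293 of 8211 called higher from 1022 of 8118. The last step was −0.08 ± 0.06 (adjusted p = 0.26 in edgeR).

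*tba-2*, on chromosome II (4376995 to 4380245), started higher and moved less. Fresh spores held 312, 316 and 337 CPM, and first polar growth 620, 609 and 604 CPM. At 240 min *tba-2* was at 630, 634 and 643 CPM and at 360 min at 626, 615 and 544 CPM. The spores were below all other libraries, and the 3 later stages lay close together. The rise from 15 to 120 min was 0.93 ± 0.06 on the log2 scale (SE, 1.90-fold, adjusted p = 2.5e-09 in edgeR). The next steps were 0.06 ± 0.06 (adjusted p = 0.51 in edgeR) and −0.10 ± 0.06 (adjusted p = 0.19 in edgeR).

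The make-up of the alpha-tubulin transcripts therefore changed with stage. In spores *tba-1* had 0.403 counts for each count of *tba-2*, and at 120, 240 and 360 min it had 0.661, 0.772 and 0.779. On the log2 scale the ratio was −1.31 ± 0.05 (SD, n = 3), −0.60 ± 0.03, −0.37 ± 0.02 and −0.36 ± 0.02. The first 3 stages were fully separate, and the last 2 overlapped. Stages differed, with the smallest p of the 4 ratios (exact permutation test, p = 0.00039, adjusted 0.0016, where the smallest possible p is 6.5e-05). The genes encode closely related proteins, and alignments of mapping quality below 20 were discarded. How many reads that match both genes were lost in this way was not tested. *tba-2* had the more counts in each of the 12 libraries, over a gene span of 3.25 kb beside 3.29 kb for *tba-1*.

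*tub-2*, the beta-tubulin gene on chromosome VI (2582865 to 2585515), was the most even of the 6. It held 660, 669 and 679 CPM in fresh spores and 888, 852 and 859 CPM at 120 min. It peaked at 240 min, with 972, 997 and 1017 CPM, and held 961, 882 and 742 CPM at branching. Spores were below all other libraries, and no 360 min library reached the 240 min level. The log2 change from 15 to 120 min was 0.37 ± 0.07 (SE, 1.29-fold, adjusted p = 0.00041 in edgeR). The call depended on the scaling of libraries. With upper-quartile scaling, which moved the median of all genes from 0.04 to −0.22, the *tub-2* change was 0.11 (adjusted p = 0.14 in edgeR).

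From 240 to 360 min *tub-2* was the only one of the 6 genes called lower, at −0.21 ± 0.07 on the log2 scale (SE, 0.865-fold, adjusted p = 0.038 in edgeR), where 21.1% of tested genes were called lower. This call was weak. It was lost when 8 of the 12 libraries were left out singly (adjusted p 0.05 to 0.11 in edgeR), and when only the 2 stages were fitted (adjusted p = 0.10 in edgeR). Scaling by library totals alone, under which the median of all genes was 0.22 in this step, gave −0.0043 (adjusted p = 0.97 in edgeR). Without 360 min replicate 3, the lowest library of its stage, the change was −0.11 (adjusted p = 0.048 in edgeR). In the step from 120 to 240 min the difference was 0.20 ± 0.07 (adjusted p = 0.071 in edgeR), with all libraries higher.

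Alpha-tubulin counts rose relative to beta-tubulin counts between spores and first polar growth. In spores the summed *tba-1* and *tba-2* counts were 0.674 of the *tub-2* counts, and at 120, 240 and 360 min they were 1.17, 1.13 and 1.23 times those counts. The log2 ratio was −0.57 ± 0.03 (SD, n = 3), 0.23 ± 0.02, 0.18 ± 0.01 and 0.30 ± 0.08. It was below 0 in every spore library, from −0.59 to −0.54, and above 0 in each of the 9 later ones, from 0.17 to 0.38. Stages differed by the exact permutation test (p = 0.0011, adjusted 0.0022). The genes differ in length, so that the side of 0 on which this ratio lies says nothing of transcript numbers. Per kb of gene span the alpha-tubulin sum was 0.547 ± 0.0108 (SD, n = 3) of *tub-2* in spores and 0.95 ± 0.0142, 0.918 ± 0.00786 and 1.00 ± 0.0539 of it at 120, 240 and 360 min, so the rise from spores remained. The span includes introns and untranslated parts, so the position of this ratio relative to 1 does not give transcript numbers either.

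**Figure D2:**
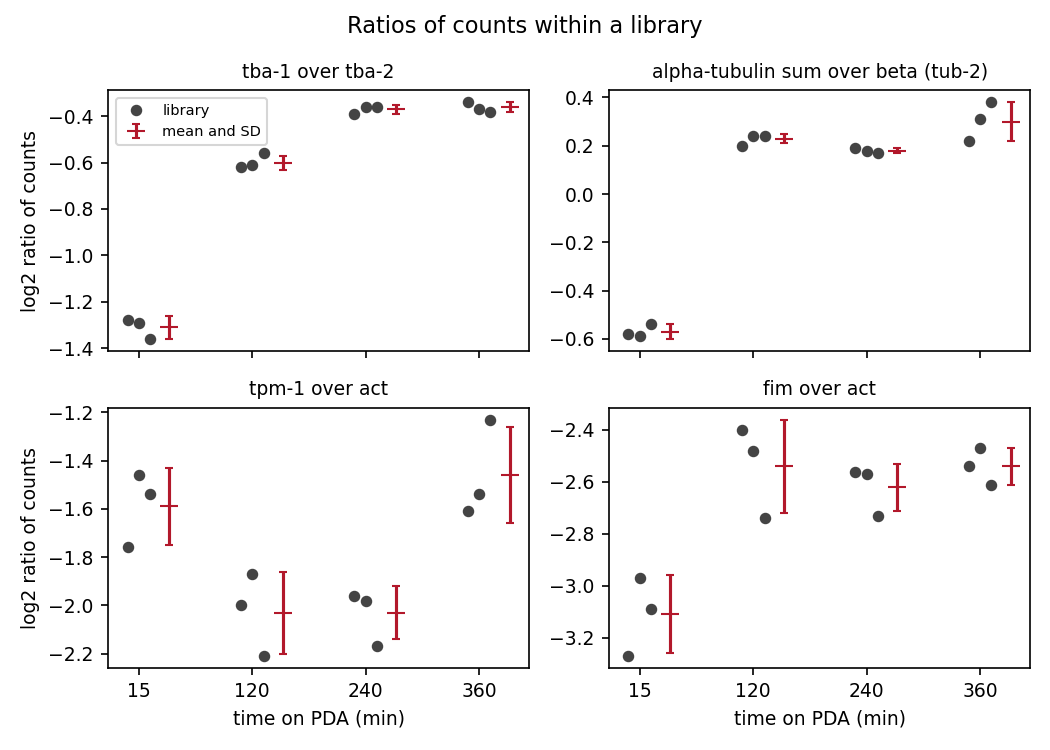
Log2 ratios of counts within a library for *tba-1* over *tba-2*, the alpha-tubulin sum over *tub-2*, *tpm-1* over *act* and *fim* over *act*, by stage; dots are libraries and red marks the mean and SD of 3, and each panel has its own vertical range. The ratio of *tba-1* over *tba-2* climbs from −1.31 at 15 min to −0.60 at 120 min and −0.37 at 240 min, then levels off (−0.36). The alpha-tubulin sum over *tub-2* steps up from −0.57 at 15 min to 0.23 at 120 min and ends at 0.30. *tpm-1* over *act* is lowest at 120 and 240 min (−2.03).

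To set the 6 genes in order of level, CPM were divided by the length of the gene span (introns and untranslated parts included), giving CPM per kb. In fresh spores *tub-2* stood highest with 252 ± 3.62 (SD, n = 3), followed by *tba-2* with 98.9 ± 4.16, *act* with 54.9 ± 0.875, *tba-1* with 39.3 ± 0.414, *tpm-1* with 28.9 ± 3.06 and *fim* with 4.98 ± 0.497. No neighbours in this order overlapped. In spores *act* was thus below both *tub-2* and *tba-2*, and it ranked 1099 of 8117 genes with a span. From 120 min on *act* stood first of the 6, with 422 ± 45.1 at rank 164, and at 360 min it had 471 ± 26.7 at rank 131. *tub-2* then stood below it with 327 ± 7.30 at 120 min and 325 ± 41.9 at 360 min. *tpm-1* was below *tba-2* at 120 min (163 ± 8.21 against 188 ± 2.54) and above it at 360 min (274 ± 54.2 against 183 ± 13.6), and at 360 min the libraries of *tpm-1* (242 to 336) and *tub-2* (280 to 362) overlapped. Without 360 min replicate 3 the means at 360 min were 242 for *tpm-1*, 191 for *tba-2* and 347 for *tub-2*, in the same order. *fim* stayed last in all stages, although its rank rose from 4163 to 891.

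**Figure D3:**
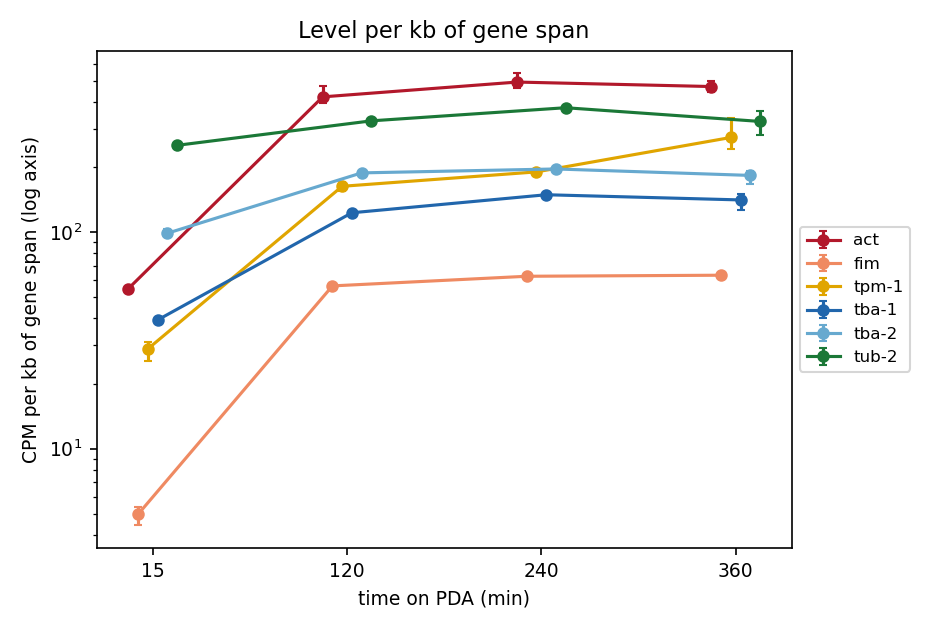
Mean level of each of the 6 genes in CPM per kb of gene span on a log axis, by stage (evenly spaced, points shifted sideways to keep them apart); bars run from the lowest to the highest of 3 libraries. *act* climbs from 54.9 to 422 between 15 and 120 min and crosses *tub-2* (252 to 327), and *fim* climbs from 4.98 to 56.5 and stays last.

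Over all stages the range of the 4 stage means was 3.63 for *fim*, 3.22 for *tpm-1* and 3.16 for *act* on the log2 scale, beside a median of 1.02 over all tested genes. These ranges exceeded those of 96.2%, 94.0% and 93.6% of genes. *tba-1* had a range of 1.92 (above 78.7% of genes), *tba-2* 0.98 (48.3%) and *tub-2* 0.57 (25.7%). Without 360 min replicate 3 the range of *tpm-1* was 3.06, below the 3.16 of *act*. The 3 actin and actin-binding genes thus had wide ranges for this data set, *tba-2* a middling one and *tub-2* a narrow one.

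The genes that work with actin and tubulin were taken as 7 further genes whose symbols name them. From 15 to 120 min 5 of the 7 were called higher and 1 lower (43.1% of tested genes were called higher and 39.6% lower), with a median of 0.87 on the log2 scale. The genes of Arp2 and Arp3, subunits of the Arp2/3 complex that nucleates the branched actin of patches, rose most of the 7. *arp2* (NCU07171) went from 9.29, 10.1 and 9.89 CPM to 90.4, 92.0 and 87.9 CPM, a log2 change of 3.21 ± 0.06 (SE, adjusted p = 1.9e-14 in edgeR). *arp-3* (NCU01756) went from 13.5, 14.3 and 13.2 CPM to 111, 113 and 109 CPM, or 3.02 ± 0.08 (adjusted p = 7.6e-13 in edgeR). Both changes lay between those of *act* and *fim*. *crn* (NCU00202), which encodes coronin, a protein of actin patches, rose 4.56-fold from 34.2, 37.8 and 36.8 CPM to 166, 161 and 168 CPM.

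The formin gene *bni1* (NCU01431) went the other way. Formins nucleate the unbranched filaments that tropomyosin binds. *bni1* held 167, 173 and 158 CPM in spores and 113, 105 and 115 CPM at 120 min, with no overlap. The log2 change was −0.58 ± 0.07 (SE, 0.669-fold, adjusted p = 3.6e-06 in edgeR), and at 360 min *bni1* was still below spores, by −0.32 ± 0.07 (adjusted p = 0.00071 in edgeR). *bud6* (NCU08468), named for a protein that assists formins in *Saccharomyces cerevisiae*, held 76.2 to 79.2 CPM in spores and 69.3 to 74.5 CPM at 120 min (−0.11, adjusted p = 0.083 in edgeR). It was called lower with upper-quartile scaling (−0.37, adjusted p = 1.2e-05 in edgeR), with DESeq2's size factors (−0.24, adjusted p = 0.0015 in edgeR), with only the 2 stages compared (−0.11, adjusted p = 0.037 in edgeR) and without 360 min replicate 3 (−0.10, adjusted p = 0.029 in edgeR).

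The counts of the 5 actin partners were read against *act* in the same library as a description. The log2 ratio of *arp-3* to *act* stayed between −3.39 ± 0.27 (SD, n = 3, 360 min) and −3.23 ± 0.17 (120 min) in the 4 stages. That of *arp2* to *act* was −3.80 ± 0.07 in spores and −3.53 ± 0.18 at 120 min. That of *crn* to *act* was −1.91 ± 0.08 in spores and −2.66 ± 0.13 at 120 min. *bni1* went from 0.29 ± 0.09 to −3.23 ± 0.12 relative to *act*, and *bud6* from −0.81 ± 0.04 to −3.86 ± 0.10.

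On the tubulin side, *tbg* (NCU03954), the gamma-tubulin gene whose product nucleates microtubules, rose 1.83-fold from 18.4 to 19.9 CPM in spores to 32.5 to 36.7 CPM at 120 min (0.87 ± 0.06 on the log2 scale, adjusted p = 6.5e-09 in edgeR). *alf1* (NCU01713), named for a folding cofactor of alpha-tubulin in *S. cerevisiae*, rose 1.56-fold from 32.1 to 33.1 CPM to 48.3 to 53.6 CPM (0.64 ± 0.06, adjusted p = 1.5e-07 in edgeR). The step of *tbg* was near that of *tba-2* (0.93), and that of *alf1* lay between those of *tub-2* (0.37) and *tba-2*. Both were below that of *tba-1* (1.64). In the step from 120 to 240 min 1 of the 7 partners was called higher, where 12.6% of tested genes were. It was *crn*, with 0.28 ± 0.09 (adjusted p = 0.043 in edgeR). From 240 to 360 min 1 was called lower, where 21.1% of tested genes were. It was *tbg*, with −0.15 ± 0.06 (adjusted p = 0.05 in edgeR, just under the threshold). Neither count sets the partners apart from all genes. Both calls were lost in most fits that left out a library, and *tbg* turned to 0.0557 with library totals.

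**Figure D4:**
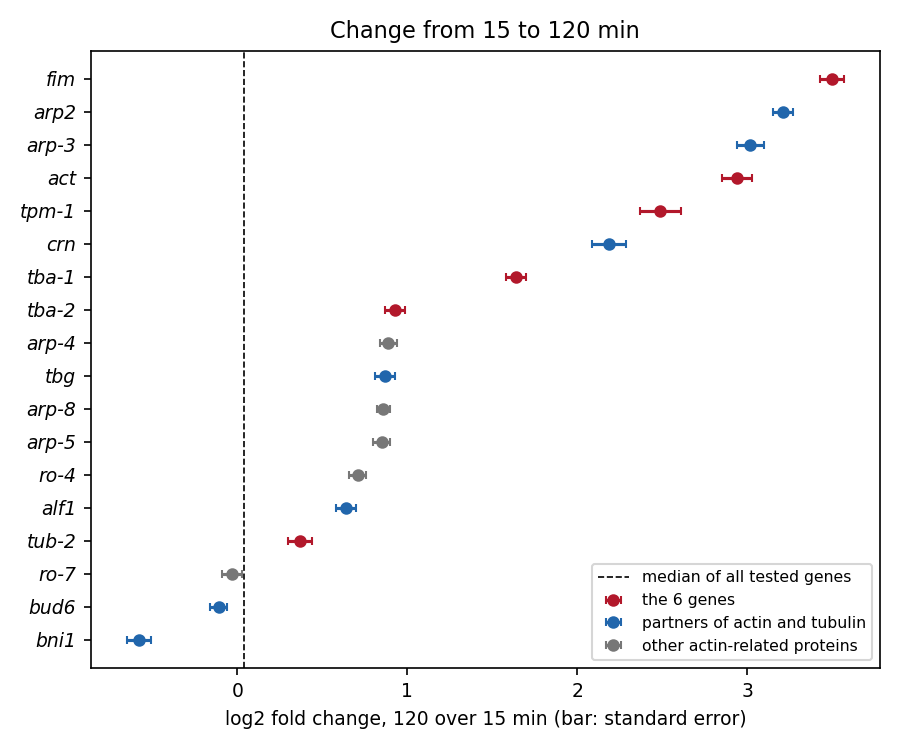
Log2 fold change from 15 to 120 min (points) with its standard error (bars) for the 6 genes, 7 partners and 5 other actin-related proteins; the dashed line is the median of all tested genes, 0.04. *fim*, *arp2*, *arp-3* and *act* lead with 2.94 to 3.50, the tubulin genes lie between 0.37 and 1.64, and *bni1* lies lowest at −0.58.

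Genes of 5 other actin-related proteins gave smaller steps than *act*. *arp-4* (NCU02555), *arp-5* (NCU06394) and *arp-8* (NCU06238) are named for proteins of chromatin remodelling complexes in *S. cerevisiae*, and *ro-4* (NCU04247) and *ro-7* (NCU03563) encode the actin-related proteins of dynactin, the cofactor of the dynein motor. From 15 to 120 min 4 of these 5 were called higher (43.1% of tested genes were), by 0.89, 0.85, 0.86 and 0.71 on the log2 scale for *arp-4*, *arp-5*, *arp-8* and *ro-4*. *ro-7* was nearly level, with 46.7 to 49.9 CPM in spores and 46.8 to 48.1 CPM at 120 min (−0.03 ± 0.06, adjusted p = 0.62 in edgeR). However, *ro-7* was called lower with upper-quartile scaling (−0.29, adjusted p = 0.00012 in edgeR) and with DESeq2's size factors (−0.16, adjusted p = 0.019 in edgeR). The same held in DESeq2 itself (−0.16, adjusted p = 0.018 in its Wald test). The highest of the 5 steps, 0.89, was well below the 2.94 of *act*. From 240 to 360 min *arp-4* was called lower (−0.22 ± 0.05, adjusted p = 0.0051 in edgeR), a call lost with library totals (−0.0177, adjusted p = 0.81 in edgeR).

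Patterns over the 12 libraries were compared by Pearson's r of log2(CPM + 0.5), as a description, since the points share libraries and 4 stages. Among the 6 genes, r was highest for *act* with *fim* (0.997) and lowest for *tub-2* with *tpm-1* (0.771). The genes outside the group closest to *act* were *gfa1* (NCU07366, an enzyme of chitin precursor synthesis, r = 0.9985) and NCU08339 (0.9983), and those closest to *fim* were *hsp98* (NCU00104, a heat shock protein, 0.9996) and NCU02669 (0.9995). *tba-1* lay closest to *gh31-2* (NCU04203, 0.9989) and NCU01342 (0.9985), *tba-2* to the citrate synthase gene *cit-1* (NCU01692, 0.998) and *mus-38* (NCU07440, 0.9977), and *tpm-1* to NCU08708 (0.9986) and NCU02809 (0.9982). High values were common, since 2167 to 2306 of 8112 genes had an r over 0.9 with any of these 5. *tub-2* differed in this, with 141 such genes, and lay closest to NCU04614 (0.9788) and *tca-7* (NCU05425, 0.9719).

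The spans of 3 of the 6 genes overlap a neighbour in the annotation. NCU09131, which overlaps *tba-1*, fell from a mean of 641 CPM in spores to 326, 277 and 187 CPM in the later stages, while *tba-1* rose. NCU01203, which overlaps *tpm-1*, fell from 210 to 140, 108 and 101 CPM. NCU03993, which overlaps *fim*, stayed between 57.2 and 71.8 CPM. Neither falling neighbour followed the gene it overlaps, and how reads from the shared stretch were divided was not tested.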

How the data were processed

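RNA from 12 libraries of germinating conidia (4 stages, 3 replicates each, grouped by the sample labels) was analysed. The deposited count table of the authors gives whole-number counts for each gene, with no scaling between libraries. They trimmed reads, aligned them with HISAT2 (2.1.0, with strand given) to the OR74A genome (version 12), discarded those of mapping quality below 20, and converted StringTie (1.3.3b) coverage to whole-number counts with the script supplied in that package, so that the counts are estimates. The submitters' processing notes also name CASAVA 1.8.2. A second deposited table holds the authors' own comparison of stages and was not used. All columns of the count table were mapped to a sample (0 were not).

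Stages were compared with edgeR (4.0.16, R 4.3.3): TMM, filterByExpr, 1 mean per stage over all 12 libraries, quasi-likelihood test, and Benjamini-Hochberg adjustment over 8118 tested genes at 0.05. The SE is the size of a log2 fold change divided by the square root of F. The common biological coefficient of variation was 0.102. Ratios of counts were tested by an exact permutation test of the F statistic over stages, two-sided by construction, with adjustment over 4 ratios. CPM used TMM library sizes, and correlations a pseudocount of 0.5. Python 3.11.15, numpy 2.4.6, pandas 2.3.3 and matplotlib 3.10.9 were used. Alternatives were DESeq2 (1.42.0), other scalings, no filter, a replicate block, fits of the stages compared only, another statistic for ratios, and each library left out.

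Member counts ran from 893 to 96529, so that counting error was at most 3.35% in a library, if the counts are taken as independent reads. The read length set for the conversion of coverage is not known here, and another length would rescale all counts and this bound. No libraries agreed within sampling noise (chi-square per gene at least 15.3). The comparison of 15 with 120 min was tested on simulated counts. There 200 of 200 genes changed 2-fold were recovered, with 3 false calls among 7976 genes. In the data 6713 of 8118 genes were called in this step, and their median moved from 0.10 with library totals to −0.22 with upper-quartile scaling. Recovery with that many genes changed, or under another scaling, was not tested.

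The 6 genes, though set by ID, and the lists were chosen with earlier results of these data known. The named genes were the 6, their partners by role, and for each of the 6 the 2 genes with the highest r. Gene symbols and coordinates came from a RefSeq table of assembly NC12, in which 10590 of 10592 IDs were found. That table pairs IDs with symbols and not with product names, so partners (Arp2, Arp3, formin, Bud6, coronin, gamma-tubulin and a tubulin folding cofactor) were found by symbol, and profilin, cofilin, capping protein and chaperonin subunits were not analysed here. The 5 other actin-related proteins were added when the symbols were read. Sequences of the genes and proteins are not shown here.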

Additional observations from a re-analysis of the deposited data

How the results depend on the processing

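Of 456 checks of single steps of the 6 genes, 422 kept direction and side of the threshold, 12 lost the call (all for *tub-2*), 16 gained one and 6 changed direction. All 6 genes stayed called from 15 to 120 and from 15 to 360 min in each fit that left out 1 library. In those fits 3419 to 3596 tested genes were called higher from 15 to 120 min, and 3494 to 3583 from 15 to 360 min. With upper-quartile scaling *tub-2* lost both calls (0.11 and 0.12 on the log2 scale). From 120 to 240 min, 3 of the 6 were called higher with library totals, 4 with only the 2 stages compared and 4 with DESeq2. With a library left out 1 to 4 were. Over all genes 1134 of 8118 were called higher with library totals and 1401 of 7662 with only the 2 stages compared. In DESeq2 1154 of 7707 were, beside 1022 of 8118 in the main fit. With a library left out the all-gene calls ran from 675 of 8224 to 1293 of 8211. From 240 to 360 min 1 of the 6 was called with only the 2 stages compared, and 1 to 2 with a library left out. Over all genes 2847 of 7671 were called in either direction with only the 2 stages compared. With a library left out 2714 of 8204 to 3463 of 8223 were.

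Changes of direction all concerned small steps. With library totals the step from 240 to 360 min became 0.14 for *act*, 0.12 for *tba-1*, 0.11 for *tba-2* and 0.0557 for *tbg*, and the step of *ro-7* from 15 to 120 min became 0.0278. With a library left out the *act* step ran from −0.1117 to 0.0039 (without 240 min replicate 3), and the *ro-7* step from −0.0487 to 0.0013 (without 15 min replicate 2). With DESeq2, or its size factors in edgeR, the *fim* step from 240 to 360 min was −0.0019. With the range of stage means as the statistic, the *tpm-1* to *act* ratio (0.13 from 15 to 360 min) was no longer past the threshold.

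Over all genes 1812 were called from 120 to 240 min, 1102 without 240 min replicate 3, 1122 without 240 min replicate 2 and 2578 without 360 min replicate 3. Library totals moved the split of higher and lower calls from 1022 and 790 to 1134 and 441 in that step, and from 1680 and 1710 to 3367 and 578 from 240 to 360 min. They moved the median log2 change of all genes to 0.35 from 15 to 360 min, and upper-quartile scaling moved it to −0.20.

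Any pairing of the libraries by replicate number was weak. Deviations were correlated over 0.1 in 3 of 18 same-numbered pairs (all pairs −0.0822 to 0.166) and in 1 of 36 pairs with other numbers (−0.182 to 0.146). With the number as a block, 2 of the 6 genes were called higher from 120 to 240 min, where 985 of 8118 tested genes were. The 4 ratios kept their calls (adjusted exact permutation p 0.0069 to 0.021).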
